A study of Rattus norvegicus with 20 samples.

Results

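The genes described here are Nfe2l2, which encodes the transcription factor NRF2, its inhibitor Keap1, and 8 antioxidant genes known as NRF2 targets, namely Nqo1, Txnrd1, Gclc, Gclm, Hmox1, Srxn1, Prdx1 and Slc7a11. They were chosen by symbol from the annotated transcript clusters of a rat array, where a transcript cluster is a set of short probes that gives 1 value per gene and array, and the brightest cluster over the 20 arrays stood for a gene with several. Of the 10 members, 8 had a cluster with that symbol alone, and 7 of them were among the 8499 of 14557 named genes bright enough to be tested. Srxn1 had no cluster named for it in the annotation used here. Prdx1 was only in a cluster that also carries the symbol Prdx1l1, so no value is given for it. Slc7a11 fell below the limit on level and was fitted among all 14557 named genes instead.

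RNA of whole blood from male rats was hybridised to Affymetrix arrays, 1 array per rat. The labels give the strain of all groups as Zucker. ZDF rats are a Zucker line that becomes obese and diabetic through a defect in the leptin receptor, and the study sets its lean control rats apart from them, without a genotype for the lean rats in the labels. The groups were rosiglitazone, resveratrol, obese and lean control, with 5 rats in each. The rosiglitazone, resveratrol and obese rats are taken here as ZDF rats. Against lean control rats, drug and line therefore cannot be told apart. Rosiglitazone is an agonist of the nuclear receptor PPAR gamma used against diabetes, and resveratrol is a plant polyphenol. The labels name the drugs without a dose, a route or a duration, so the drugs could not be matched on these, and the obese group carries no drug in its label. Lean rats received a standard Purina chow and obese rats a stock diet over 6 weeks, while the diet of the drug groups is not stated apart. Diet and lean or obese group therefore cannot be told apart.

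NRF2 is held in the cytoplasm by KEAP1, which passes it to a ubiquitin ligase for degradation. Oxidants and electrophiles modify cysteines of KEAP1, NRF2 then accumulates, enters the nucleus with a small MAF protein and binds the antioxidant response element of its target genes. The targets make glutathione, reduce thioredoxin and quinones and break down heme, and KEAP1 is itself a regulator at the protein level, so the transcript levels of Nfe2l2 and Keap1 do not measure NRF2 activity directly.

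The element is shown here because it is the sequence through which the members are known to be controlled. Its core, TGACNNNGC, was searched on both strands of the RefSeq promoter windows of assembly GRCr8, which run from 250 bases before to 50 bases after an annotated start. The core can overlap the AP-1 motif TGANTCA. Of the members, 9 had a window, Txnrd1 had 2 windows, and Hmox1 was not in the table. The core was found in 4 of the 10 windows, against 4038 of all 33469 windows (12.06%) and 15 of 57 windows (26.3%) of the wider NRF2 pathway list described further on. A match is a description of letters, and no match says only that these letters are not in that window. The windows of Txnrd1 and Gclm are printed whole, 5′ to 3′ in the direction of the gene, and capitals mark the core, which reads GCNNNGTCA where it lies on the opposite strand.
Txnrd1, second window, chr7:22755855-22756154, minus strand, core at -78: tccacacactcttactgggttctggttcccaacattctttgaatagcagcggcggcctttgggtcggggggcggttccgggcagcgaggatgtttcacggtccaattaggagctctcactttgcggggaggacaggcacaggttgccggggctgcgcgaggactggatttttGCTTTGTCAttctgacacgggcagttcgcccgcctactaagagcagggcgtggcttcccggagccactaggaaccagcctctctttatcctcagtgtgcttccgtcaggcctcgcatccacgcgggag
Gclm, chr2:213031885-213032184, plus strand, core at -172: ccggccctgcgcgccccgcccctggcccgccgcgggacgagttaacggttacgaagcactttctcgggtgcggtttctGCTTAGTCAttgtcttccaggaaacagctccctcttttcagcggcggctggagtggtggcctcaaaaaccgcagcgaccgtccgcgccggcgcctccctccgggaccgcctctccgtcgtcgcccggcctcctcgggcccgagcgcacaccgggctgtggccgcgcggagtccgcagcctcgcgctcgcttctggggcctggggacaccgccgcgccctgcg
In Prdx1 the core lay at -135 and in Nfe2l2 at 39 bases after the start, the only match that read in the direction of its gene. These sites are given with their flanking bases.
Prdx1 site: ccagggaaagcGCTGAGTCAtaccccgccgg
Nfe2l2 site: cgactagccatTGACGCCGCctc
The windows of Keap1, Nqo1, Gclc, Srxn1 and Slc7a11 and the first window of Txnrd1 held no match.

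**Figure D1:**
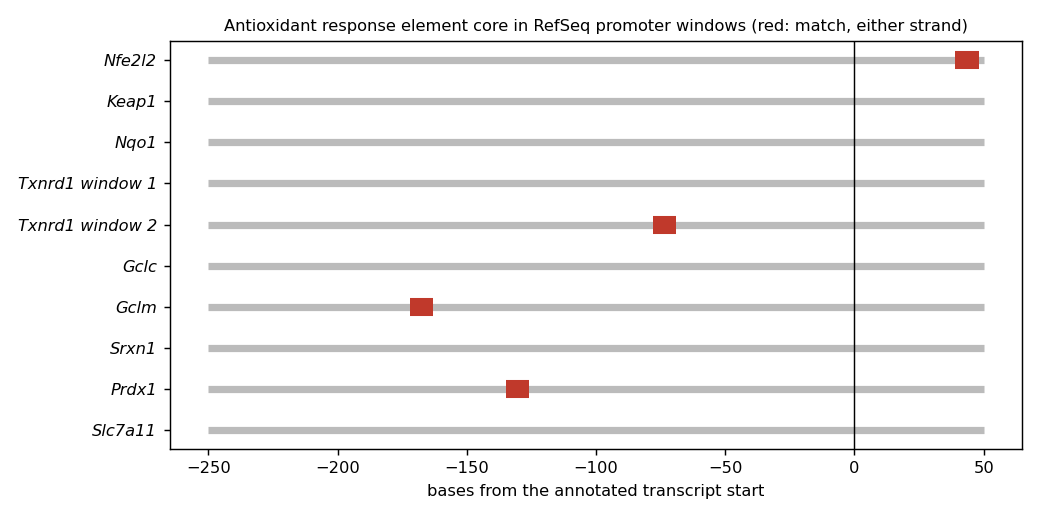
Promoter windows of the members that have one (rows), with the distance in bases from the annotated start on the x axis and the start as a vertical line. Red blocks mark the 9-base core on either strand, which is present in Nfe2l2, the second window of Txnrd1, Gclm and Prdx1.

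All values below are log2 intensities, and differences are log2 differences between group means with the standard error (SE) of limma, a linear model fitted across all genes. p-values carry the Benjamini-Hochberg adjustment over the genes tested, and an adjusted p under 0.05 is called past the test. Whole blood is a mixture of cells, so fewer cells of a type and less RNA per cell cannot be told apart. The medians of the arrays ran from 2.544 to 2.781 over all clusters, and the number of arrays limits the precision. Blood cell markers were measured on every array, with 9 of 12 listed monocyte genes, 10 of 14 neutrophil genes and 8 of 15 red cell genes above the limit on level. Lean control rat 1 stood apart by its skeletal muscle genes, with a list mean of 6.56, against at most 3.76 on the other 19 arrays. Rosiglitazone rat 5 had the highest neutrophil list mean (7.05), and resveratrol rat 1 the lowest monocyte list mean (4.90).

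Between the drugs, Hmox1 and Txnrd1 were the members with the smallest p-values, both at higher mean levels in rosiglitazone blood, and neither passed the test. Of the 7 members tested, 0 were past the test with limma and 2 had an unadjusted p under 0.05. The background was 4 of 8499 genes past the test (0.0471%) and 765 with an unadjusted p under 0.05. The median difference of the members was 0.37, with 4 higher and 3 lower, beside a median of -0.01 over all genes.

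Hmox1 encodes heme oxygenase 1, which opens the heme ring into biliverdin, carbon monoxide and iron. Its level was 3.45, 3.52, 4.09, 2.86 and 3.26 in rosiglitazone rats 1 to 5, against 2.53, 2.48, 2.36, 2.93 and 2.51 in resveratrol rats 1 to 5. Hmox1 was dim, with a mean of 2.91 over the 20 arrays beside the limit on level of 2.64. Its resveratrol mean was 2.56, and every resveratrol rat except rat 4 lay below that limit. The groups overlapped through a single rat on each side. Rosiglitazone rat 4 lay just below resveratrol rat 4 and the other rats were apart. The difference was 0.87 (SE 0.18, 1.83-fold, adjusted p = 0.0534 by limma), which placed Hmox1 seventh among all genes by p.
It passed in 3 of 21 alternatives, namely with a trended robust prior (adjusted p = 0.0491), without rosiglitazone rat 4 (1.02, 0.00662) and without resveratrol rat 4 (0.96, 0.0394), and over all 21 the adjusted p ran from 0.00662 to 0.307. The monocyte list mean was 6.21 ± 0.39 in rosiglitazone and 5.73 ± 0.47 in resveratrol blood (SD, n = 5 each), and 5.94 in resveratrol blood without rat 1 (4 rats). The difference between these list means was not tested. Other list means in rosiglitazone and resveratrol blood were 5.82 and 5.67 for neutrophils and 8.48 and 8.57 for red cells. B cells were at 3.86 and 4.26, T cells at 5.22 and 5.46, and NK and cytotoxic cells at 4.87 and 4.93. Platelets were at 8.002 and 8.35. The part of the lymphocyte and platelet lists in the member differences was not tested. Beside the monocyte list mean in the model (an alternative added once the data had been seen), the Hmox1 difference was 0.76 (SE 0.20, adjusted p = 0.208).

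Txnrd1 encodes the cytosolic thioredoxin reductase, a selenoprotein that passes electrons of NADPH to thioredoxin. It stood at 5.35, 4.70, 5.30, 4.71 and 5.39 in rosiglitazone rats 1 to 5, against 4.59, 4.36, 4.001, 4.24 and 4.65 in resveratrol rats 1 to 5. Every rosiglitazone rat lay above every resveratrol rat, although rats 2 and 4 did so narrowly. Over all genes, 102 of 8499 (1.2%) had groups that did not overlap in this comparison, and Txnrd1 was the 1 such member of 7. The difference was 0.72 (SE 0.22, 1.65-fold, adjusted p = 0.304 by limma), with a range of 0.176 to 0.492 over the alternatives. Beside the monocyte list it was 0.53 (adjusted p = 0.492).

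Nqo1 encodes a quinone reductase that works by transfer of 2 electrons. Its level was 3.81, 3.60, 3.81, 3.35 and 3.79 in rosiglitazone rats, against 2.76, 3.37, 3.62, 3.52 and 3.24 in resveratrol rats. The groups overlapped, with resveratrol rat 1 the lowest. The difference of 0.37 (SE 0.20, adjusted p = 0.599) was 0.10 beside the monocyte list, and 0.20 without the 3 arrays that stand apart.

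Nfe2l2 itself, the gene of NRF2, had levels of 6.65, 6.54, 6.79, 6.02 and 6.61 in rosiglitazone rats and 4.97, 6.42, 6.35, 6.48 and 6.14 in resveratrol rats. Resveratrol rat 1 was far below all other rats and rosiglitazone rat 4 was the lowest of its group. The difference was 0.45 (SE 0.22, adjusted p = 0.56), and it was -0.04 (SE 0.16) beside the monocyte list and 0.15 (SE 0.17) without the 3 arrays. Keap1, the cysteine-rich inhibitor, averaged 4.22 ± 0.46 in rosiglitazone and 4.53 ± 0.31 in resveratrol blood (SD, n = 5 each), a difference of -0.30 (95% interval -0.72 to 0.12, adjusted p = 0.703).

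Gclc and Gclm, the pair that starts glutathione synthesis, had the smallest differences between the drugs among the measured members. Gclc, the catalytic subunit of that enzyme, averaged 5.43 ± 0.52 in rosiglitazone and 5.55 ± 0.23 in resveratrol blood (SD, n = 5 each). Its difference of -0.12 had an interval of -0.51 to 0.27, and the sign turned without rosiglitazone rat 5 (0.09), which at 4.58 was the lowest of all 20 rats. Gclm, the modifier subunit of the same enzyme, averaged 10.10 ± 0.11 and 10.14 ± 0.13 in rosiglitazone and resveratrol blood, with a difference of -0.03 (95% interval -0.29 to 0.22). Slc7a11, the cystine importer that feeds glutathione synthesis, was dim in both, at 1.54 ± 0.15 and 1.85 ± 0.28 in rosiglitazone and resveratrol blood, with a difference of -0.31 (95% interval -0.74 to 0.13, adjusted p = 0.761 over all named genes).

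**Figure D2:**
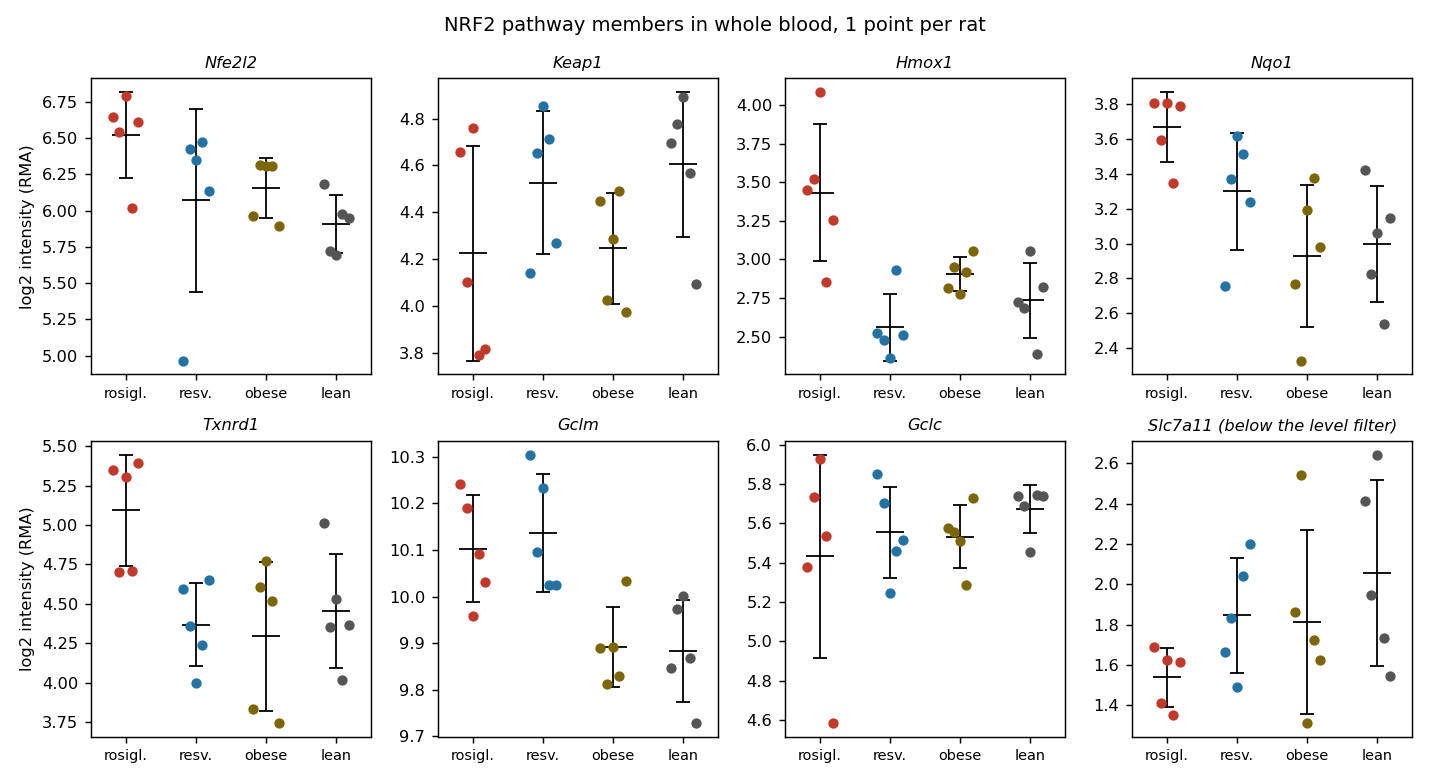
Log2 intensity (y axis) of the 8 members with a value in rosiglitazone, resveratrol, obese and lean control rats (x axis), 1 point per rat with the group mean and SD as bars; the y axes differ between panels and do not start at 0. Txnrd1 is at 4.70 or more in all rosiglitazone rats and at 4.65 or less in all resveratrol rats, and resveratrol rat 1 is the single low point of Nfe2l2 at 4.97.

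Against obese rats, rosiglitazone rats had higher mean levels of Nqo1, Txnrd1 and Hmox1, and none of the 7 members passed the test (0 past it, 3 with an unadjusted p under 0.05). The background was 14 of 8499 genes (0.165%) past the test and 1032 with an unadjusted p under 0.05. Nqo1 stood at 2.77, 2.33, 3.19, 3.38 and 2.98 in the obese rats, so its rosiglitazone values given above overlapped them through rosiglitazone rat 4 alone. The difference was 0.74 (SE 0.20, adjusted p = 0.158). Txnrd1 was at 3.83, 4.60, 4.77, 4.52 and 3.74 in obese rats, and only obese rat 3 reached the lower rosiglitazone rats, with a difference of 0.80 (SE 0.22, adjusted p = 0.163). Hmox1 was even among obese rats, from 2.78 to 3.06, with a difference of 0.53 (SE 0.18, adjusted p = 0.254). No member was free of overlap in this comparison, against 219 of 8499 genes (2.58%). The monocyte list was at 6.21 ± 0.39 in rosiglitazone and 6.21 ± 0.16 in obese blood (SD, n = 5 each), and beside it the differences of Nqo1, Txnrd1 and Hmox1 were 0.74, 0.80 and 0.53. The neutrophil list averaged 5.82 (5.04 to 7.05) in rosiglitazone and 5.38 (5.17 to 5.66) in obese blood, and beside it the 3 differences were 0.67, 0.64 and 0.46.

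Resveratrol and obese rats did not differ past the test in any member, nor in any other gene with limma (0 of 8499 genes, 0%, and 873 with an unadjusted p under 0.05). Members with an unadjusted p under 0.05 numbered 0 of 7. The differences were 0.37 for Nqo1 (SE 0.20, adjusted p = 0.529), 0.24 for Gclm (SE 0.12, adjusted p = 0.504) and -0.34 for Hmox1 (SE 0.18, adjusted p = 0.52). All 7 members overlapped between these groups, against 151 of 8499 genes (1.78%) that did not. For Txnrd1 the interval of the difference was -0.38 to 0.52. The rosiglitazone and resveratrol comparisons share the same obese rats, so their values stand side by side and are not independent.

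**Figure D3:**
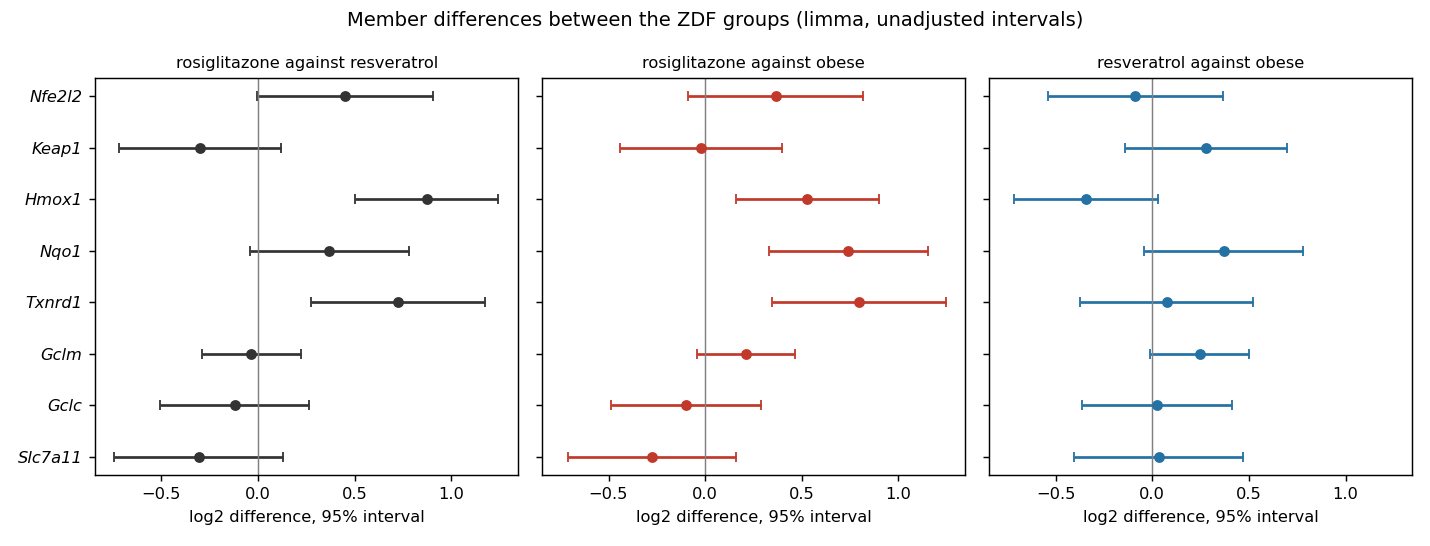
Log2 differences (x axis) with unadjusted 95% intervals of limma for the 8 members (rows) in rosiglitazone against resveratrol, rosiglitazone against obese and resveratrol against obese. Hmox1 and Txnrd1 lie right of 0 with their whole interval in both panels that have rosiglitazone, Nqo1 does so only against obese, and no interval in the resveratrol panel excludes 0.

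Against lean control rats, rosiglitazone rats had more Hmox1, Nqo1 and Txnrd1 transcript, the 3 members of 7 past the test. In this comparison 1585 of 8499 genes (18.6%) were past it, 354 higher and 1231 lower, with a median difference of -0.09. Hmox1 was 2.73, 2.69, 3.05, 2.39 and 2.82 in lean rats, and rosiglitazone rat 4 alone lay within that range. The difference was 0.70 (SE 0.18, adjusted p = 0.0115). Nqo1 was 3.42, 2.83, 3.06, 2.54 and 3.14 in lean rats, of which only lean rat 1 reached the lowest rosiglitazone rat, and the difference was 0.67 (SE 0.20, adjusted p = 0.0225). Txnrd1 was 5.01, 4.35, 4.53, 4.02 and 4.36 in lean rats, where rat 1, the array with muscle genes, was the highest, and the difference was 0.64 (SE 0.22, adjusted p = 0.0433).
These calls depended on the alternative, with Hmox1 past the test in 19 of 21, Nqo1 in 15 and Txnrd1 in 7. Each count includes the mean of clusters, which leaves the values of these genes unchanged because each has a single cluster. The monocyte list was at 6.21 ± 0.39 in rosiglitazone and 5.60 ± 0.11 in lean blood, and the neutrophil list at 5.82 ± 0.81 and 4.85 ± 0.32 in the same order of groups (SD, n = 5 each). The lymphocyte and platelet lists had the lower mean in rosiglitazone blood, with 3.86 and 5.03 for B cells, 5.22 and 6.14 for T cells, 4.87 and 5.56 for NK and cytotoxic cells and 8.002 and 8.64 for platelets in rosiglitazone and lean blood. The part of these 4 lists in the member differences was not tested.
No call of the 3 held beside the monocyte or the neutrophil list, and the differences became smaller by unequal amounts. Hmox1 was at 0.55 beside monocytes (adjusted p = 0.0702) and 0.54 beside neutrophils (0.166). Nqo1 was 0.33 beside monocytes (adjusted p = 0.283) and 0.51 beside neutrophils (0.233). Txnrd1 was 0.39 and 0.29 beside the same lists (adjusted p = 0.29 and 0.521). The monocyte list ran from 5.62 to 6.66 in rosiglitazone and from 5.45 to 5.73 in lean blood, overlapping through rosiglitazone rat 4 alone. Group and this covariate were hard to tell apart, so the lost calls cannot show what part monocytes had. That part was not tested. Of all genes, 1988 passed beside the monocyte list, against 1585 without it. Keap1 was the 1 member past the test beside the monocyte list (-0.654, adjusted p = 0.0494). Without lean rat 2, lean rat 4 or rosiglitazone rat 5, 1 member passed, which was Hmox1. Nfe2l2 differed by 0.61 (SE 0.22, adjusted p = 0.0526) without passing. It passed in 6 of 21 alternatives, among them quantile normalization (0.77, adjusted p = 0.012) and the fit without the 3 arrays (0.66, 0.0244), and was -0.01 beside the monocyte list (adjusted p = 0.97). Slc7a11 differed by -0.52 (SE 0.21, adjusted p = 0.12).

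Resveratrol and lean rats differed past the test in 0 of 7 members, against 1118 of 8499 genes (13.2%). Gclm was at 10.30, 10.10, 10.23, 10.03 and 10.02 in resveratrol rats, against 9.85, 9.97, 10.0002, 9.87 and 9.73 in lean rats. All resveratrol rats were above all lean rats, by a narrow margin, as the groups of 890 of 8499 genes (10.5%) also did not overlap. The difference was 0.25 (SE 0.12, adjusted p = 0.16), and 0.15 with the red cell list as a covariate. Obese against lean control rats gave 0 of 7 members past the test, with 251 of 8499 genes (2.95%) past it. Keap1 had the smallest p of the members, at 4.25 ± 0.24 in obese and 4.61 ± 0.31 in lean blood (SD, n = 5 each), a difference of -0.36 (SE 0.17, adjusted p = 0.206), and Nfe2l2 differed by 0.25 (SE 0.15, adjusted p = 0.306).

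Within the groups, no pair of members had an adjusted p under 0.05. Over the 20 rats, each taken as its deviation from its group mean, Pearson's r among the 21 pairs of members ran from -0.547 to 0.587 with a median of 0.111. Together with 49 pairs of a member and a marker list this made 70 relations. Of these, 0 had an adjusted p under 0.05 in 100000 permutations within groups. The highest r of the member pairs was that of Nfe2l2 and Nqo1 (permutation p = 0.0104, adjusted p = 0.216). The lowest was that of Nfe2l2 and Gclm (permutation p = 0.0211, adjusted p = 0.266). Nfe2l2 followed the monocyte list most closely (r = 0.876, permutation p = 0.00155, adjusted p = 0.108, Spearman's rho = 0.731, permutation p = 0.00259). Without the 2 rats farthest from the median in Nfe2l2, r was 0.614. Gclm and the red cell list gave r = 0.573 (permutation p = 0.00904, adjusted p = 0.216, rho = 0.576, permutation p = 0.0111), and 0.468 without the 2 rats farthest in Gclm.

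**Figure D4:**
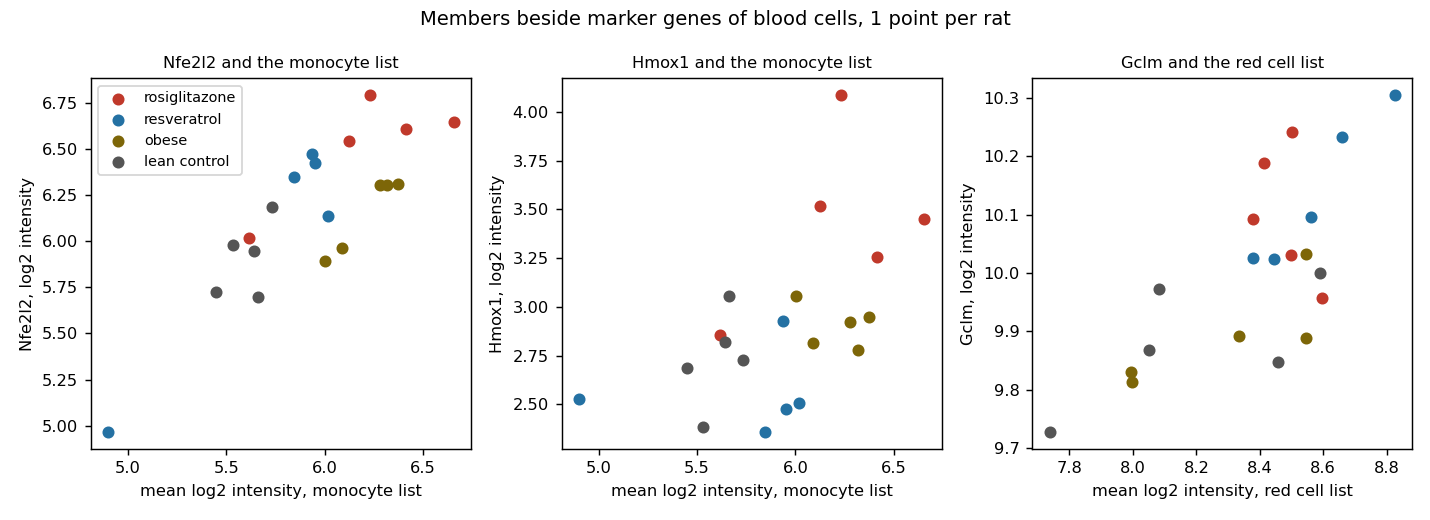
Log2 intensity of Nfe2l2 and Hmox1 against the mean of the monocyte list, and of Gclm against the mean of the red cell list, 1 point per rat and 1 colour per group. Resveratrol rat 1 is lowest on the monocyte list at 4.90 and lowest in Nfe2l2 at 4.97, while in Hmox1 the rosiglitazone rats other than rat 4 lie above all other rats at 3.26 or more.

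For the members past the test in any comparison, the genes with the most similar level over the 20 arrays were found as a description. Hmox1 was nearest to Nfam1 (r = 0.792), Ssh3 (0.786) and Pilrb2l3 (0.76). Nqo1 was nearest to Rrm2 (0.844), Ifnar1 (0.757) and Slc2a1 (0.747), and Txnrd1 to Myd88 (0.763), Zbtb16 (0.738) and Clic1 (0.703). These arrays share groups and cell make-up.

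The wider pathway was covered by a list of 62 further regulators and targets of NRF2, of which 39 were tested. Between the drugs 0 of 39 were past the test, beside 4 of all 8499 genes (0.0471%). The median difference of the 39 was -0.01, with 19 higher and 20 lower. The smallest p-values were those of Me1, the cytosolic malic enzyme that makes NADPH (-0.62, SE 0.21, adjusted p = 0.37), and Gstm5, a glutathione S-transferase (0.77, SE 0.28, adjusted p = 0.406), and neither passed. Between rosiglitazone and obese rats 14 of all 8499 genes (0.165%) were past the test. Of the 39, 1 was higher in rosiglitazone rats and 0 lower, with a median of 0.14. That gene was Gstm5, at 4.71, 5.46, 5.10, 5.32 and 5.08 in rosiglitazone rats, against 4.12, 4.24, 3.72, 2.67 and 4.37 in obese rats. All rosiglitazone rats were higher, where over all genes 219 of 8499 (2.58%) had groups that did not overlap. The difference of Gstm5 was 1.31 (adjusted p = 0.0481 by limma). The call held in 6 of 21 alternatives, with an adjusted p of 0.016 to 0.153, and among single rats left out it held only without obese rat 5. The 6 include the mean of clusters, which leaves the values of Gstm5 unchanged because it has a single cluster. Resveratrol against obese gave 0 of 39 with a median of 0.11, beside 0 of all 8499 genes. Abcb6, a porphyrin transporter (0.77, adjusted p = 0.34), and Gsta1, a glutathione S-transferase (0.96, adjusted p = 0.37), did not pass.

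Against lean rats, rosiglitazone rats had 3 of the 39 genes higher and 5 lower, 20.5% beside the 18.6% of all genes. Gstm5 (1.16, adjusted p = 0.00757) and Mgst1, a membrane-bound glutathione transferase (0.84, 0.0135), were higher. Me1 (-1.02, adjusted p = 0.00346), the iron exporter Slc40a1 (-0.67, 0.00431), the glutathione S-transferase Gstp1 (-0.72, 0.0146) and Ugdh, which makes UDP-glucuronate (-0.60, 0.0161), were lower. Each of these 6 passed in at least 18 of 21 alternatives. Beside the neutrophil list 1 of the 39 genes passed, Gstm5. There the differences were -0.61 for Ugdh, -0.77 for Me1, -0.53 for Slc40a1, -0.56 for Gstp1 and 0.24 for Mgst1, of which that of Mgst1 was the one reduced by over 1.5 times. Without rosiglitazone rat 5, the rat with the highest neutrophil list, 4 of the 39 passed. Obese rats had 5 of 39 lower and 0 higher than lean rats (12.8%, against 2.95% of all genes). These were Me1, the nucleotide and drug exporter Abcc4, and the transferases Gsta4, Gsta1 and Gstp1. The list was chosen with earlier results of these data known, so its shares are a description and were not tested against those of all genes. Me1 was at 5.82, 6.07, 5.87, 5.52 and 5.76 in obese rats, against 6.87, 6.82, 6.65, 6.75 and 6.39 in lean rats (-0.89, adjusted p = 0.0108 by limma). The other 4 differences were -0.74 for Abcc4 (adjusted p = 0.0132), -1.37 for Gsta4 (0.0263), -0.91 for Gsta1 (0.0357) and -0.68 for Gstp1 (0.043). Me1 and Abcc4 each passed in 18 of 21 alternatives, Gsta4 in 13, Gsta1 in 7 and Gstp1 in 5. None of the 39 passed beside the monocyte list, beside the neutrophil list or with all 20 arrays in the fit. With all 20 arrays the differences themselves are the same as above and the lowest adjusted p was 0.0541. The monocyte list ran from 6.00 to 6.37 in obese and from 5.45 to 5.73 in lean blood, without overlap. Beside it, group and covariate could hardly be told apart, so the lost calls cannot show what part monocytes had. That part was not tested. Beside monocytes and neutrophils the differences were -0.98 and -0.97 for Me1, -0.81 and -0.87 for Abcc4, -1.41 and -1.98 for Gsta4 and -0.83 and -1.01 for Gstp1, none smaller in size than without a covariate, while Gsta1 was -0.49 and -1.12. Of the 39, 2 passed without lean rat 1, 2 or 4 or obese rat 1. Resveratrol against lean gave 0 of 39, beside 13.2% of all genes. Slc3a2, the partner chain of the cystine importer (0.61, adjusted p = 0.0508), and Osgin1, a stress-induced growth inhibitor (0.57, adjusted p = 0.0515), were not past the test.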

How the data were processed

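Whole blood RNA of 20 rats in 4 groups of 5 was measured on Affymetrix Rat Gene 2.1 ST arrays from 100 ng of total RNA. The authors summarised the probes by RMA (version not given in the sources used here), and deposited log2 intensities for 36685 clusters on every array. The scale carries no depth. Of the clusters, 14824 had 1 symbol in the platform annotation, 829 several and 21032 none. RefSeq GRCr8 held the Entrez identifiers of 14670 single-symbol clusters. Genes were kept where the mean over all arrays was at least 2.64, the median of all clusters' means.

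Differences were tested with limma 3.58.1 in R 4.3.3 (lmFit, eBayes), obese against lean on those 10 arrays and the rest on all 20 with 4 group means, with Benjamini-Hochberg adjustment at 0.05. The labels call the arrays biological replicates. The replicate numbers belong to different rats, and the labels give no pairing between the groups. The steps were tested on simulated data. All 10 members are named, and of the pathway list at most 6 genes past the test per comparison or the 2 with the smallest p, and the 3 genes most like each called member. Members and lists were chosen with earlier results of these data known. Alternatives were no filter, the mean of clusters, 2 scalings, other arrays in the fit, another prior, a replicate block, each array left out in turn and a red cell covariate. The mean of clusters changes only the values of genes with several clusters. The monocyte and neutrophil covariates and the removal of 3 arrays were added after seeing the data. Python 3.11.15 and matplotlib 3.10.9 made tables and figures.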

Additional observations from a re-analysis of the deposited data

Results flagged for a closer look

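In 32 groups of 5 rats (8 members in 4 groups), 2 rats lay far from the rest by Dixon's ratio, whose 95% critical value is 0.71, and chance flags about 1 group in 20. Nfe2l2 in resveratrol rat 1 was 4.97, against 6.14 for the next rat of its group, with a ratio of 0.776. The same array had the lowest monocyte list mean, at 4.90, and the part of that in the Nfe2l2 value was not tested. Gclc in lean control rat 3 was 5.46, against 5.69 for the next lean rat, with a ratio of 0.815.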

How the results depend on the processing

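Of 48 member differences, 20 changed sign under some alternative, and none of the 3 past the test did. No filter, other arrays, another prior, the replicate block and the mean of clusters leave a member's difference as it was. Under these settings, counted among the other settings below, only the adjusted p could move and the sign could not turn. Single arrays left out gave 480 values, of which 440 kept direction and side of the threshold, and the other settings 445 of 498. With a replicate block the count of all genes for obese against lean was 75 instead of 251. Same-numbered rats of different groups correlated at 0.026 on average (-0.183 to 0.27 over 30 pairs), beside -0.006 for rats of other numbers. Among the 5 replicate numbers, 9 of 20 arrays were nearest to their own. Whether same-numbered arrays share anything was not tested.

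Members past the test between the drugs numbered 1 instead of 0 with a trended robust prior and 0 to 1 with single arrays left out. For rosiglitazone against lean they numbered 1 beside the monocyte list, 0 beside the neutrophil list and 1 to 4 with single arrays left out, instead of 3. For resveratrol against lean the prior gave 1, Gclm, instead of 0. Pathway genes past the test for rosiglitazone against obese (1) were 0 without a filter, after either scaling, with the arrays of these 2 groups only, beside red cells and without the 3 arrays, and 0 to 1 without single arrays. For rosiglitazone against lean (8) they were 5 beside red cells, 1 beside neutrophils, 5 without the 3 arrays and 4 to 9 without single arrays. For resveratrol against lean (0) they were 2 with the prior, with the replicate block and beside monocytes, and 0 to 2 without single arrays. For obese against lean (5) they were 3 after quantile normalization and with the replicate block, 0 with all 20 arrays, beside monocytes and beside neutrophils, 2 without the 3 arrays and 2 to 7 without single arrays.

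Genes past the test between the drugs (4) were 7 after quantile normalization, 13 with the prior and 3 to 11 without single arrays. For rosiglitazone against obese (14) they were 23 beside monocytes, 7 beside red cells, 25 with the prior and 3 to 16 without single arrays, and for resveratrol against obese 0 to 1. For rosiglitazone against lean (1585) they were 1988 beside monocytes and 77 beside neutrophils. They were 1012 after quantile normalization, 808 beside red cells, 631 without the 3 arrays and 785 to 1648 without single arrays. For resveratrol against lean (1118) they were 1795 beside monocytes, 157 beside neutrophils, 415 after quantile normalization, 30 beside red cells, 245 without the 3 arrays and 317 to 1363 without single arrays. For obese against lean (251) they were 23 with all 20 arrays, 455 after centring, 0 beside monocytes and 4 beside neutrophils. The count was 132 without a filter, 135 after quantile normalization, 512 with the prior, 79 without the 3 arrays and 46 to 459 without single arrays. The monocyte list did not overlap between obese and lean blood, so the fit beside it could hardly tell group from covariate. Calls higher and lower moved with scaling, for obese against lean from 68 and 183 to 71 and 64 after quantile normalization and 52 and 403 after centring. For rosiglitazone against lean the 354 and 1231 became 363 and 649, and 198 and 1708, and for resveratrol against lean the 232 and 886 became 176 and 239, and 132 and 1213. For rosiglitazone against obese the 10 and 4 became 9 and 9 after quantile normalization.

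Signs of small member differences turned as follows. Between the drugs, beside monocytes, Nfe2l2 was -0.0436, Gclc 0.0614 and Gclm 0.0285, and without the 3 arrays Gclc was 0.164 and Gclm 0.0259. For resveratrol against obese, Nfe2l2 was 0.41 and Gclc -0.16 beside monocytes, Txnrd1 -0.0307 beside neutrophils, Slc7a11 -0.0479, Nfe2l2 0.0639 and Gclc -0.0083 beside red cells, and Nfe2l2 0.189 and Gclc -0.0510 without the 3 arrays. For rosiglitazone against obese, Gclc was 0.0799 beside neutrophils, and Keap1 0.0814 and Gclc 0.113 without the 3 arrays. For rosiglitazone against lean, Nfe2l2 was -0.0108 beside monocytes and Gclc 0.154 beside neutrophils. For resveratrol against lean, Nfe2l2 was -0.0208 and Gclc 0.2155 beside neutrophils, Keap1 0.0950, Txnrd1 0.0908 and Gclc 0.0628 after quantile normalization, and Keap1 0.0386 without the 3 arrays. For obese against lean, Nfe2l2 was -0.47 and Gclc 0.14 beside monocytes, Gclc 0.0503, Gclm -0.0149 and Hmox1 -0.0367 beside neutrophils, Gclm -0.0598 after centring and -0.0144 beside red cells, and Nqo1 0.0374 and Gclm -0.0005 without the 3 arrays.

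Leaving out single arrays gave, between the drugs, -0.25 to 0.0903 for Gclc and -0.0687 to 0.0080 for Gclm. For rosiglitazone against obese it gave -0.15 to 0.0880 for Keap1 and -0.22 to 0.11 for Gclc. For resveratrol against obese it gave -0.0928 to 0.21 for Slc7a11, -0.19 to 0.19 for Nfe2l2, -0.0639 to 0.19 for Txnrd1 and -0.0510 to 0.0998 for Gclc. For resveratrol against lean it gave -0.21 to 0.0163 for Keap1 and -0.20 to 0.0523 for Txnrd1, and for obese against lean -0.18 to 0.0824 for Nqo1 and -0.0302 to 0.0378 for Gclm. The causes were not tested, and 5 arrays per group limit the precision.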
